A study of Mus musculus with 12 samples.

Results

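The matrix remodelling and fibroblast genes are 10 genes chosen by symbol: the metalloproteinases Mmp2, Mmp9 and Mmp14, their inhibitors Timp1, Timp2 and Timp3, the cross-linking enzyme Lox, the matrix proteins Postn and Fn1, and the receptor Pdgfra. All 10 were found among the 22923 symbols listed, and all 10 passed the filter on low values, which kept 11945 genes for testing. RNA from proximal hind limb muscle of 12 male FVB mice aged 22 weeks was sequenced, 3 mice in each of 4 groups. The WT mice, which the titles call Flox, and the KO mice, which lack both αB-crystallin (Cryab) and HspB2 (Hspb2), were kept on normal chow or on a high fat diet (HFD). The KO is global, so every cell type in the muscle carries it, and the effects of the 2 deletions cannot be told apart. Groups were taken from the titles, because the genotype entry of 6 samples contradicts its own title. The groups are called WT chow, WT HFD, KO chow and KO HFD here, with mice numbered as in the titles. Values are FPKM, which counts fragments per kilobase of transcript relative to the fragments mapped in the library, and differences are on the log2(FPKM + 1) scale, which understates the change of low genes.

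The matrix around muscle fibres is made mainly by fibroblasts and by fibro-adipogenic progenitors, both of which carry PDGFRα on their surface. Matrix metalloproteinases cut collagens and other matrix proteins, and the tissue inhibitors of metalloproteinases (TIMPs) block them. MMP14 sits in the cell membrane, and together with TIMP2 it activates the secreted proenzyme of MMP2. Fibronectin and periostin are laid down when matrix is built, and lysyl oxidase ties collagen and elastin fibres together.

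Promoter sequences are shown here for genes of different roles, a receptor, a protease, a matrix protein and an inhibitor, since several members moved together across libraries. RefSeq windows on GRCm38.p6 were found for 6 of the 10 members, and Mmp2, Mmp9, Fn1 and Lox had no entry. Each printed window holds the 250 bases before the start, on the plus strand, with no annotated exon inside. The windows are chr5:75152001-75152250 for Pdgfra, chr14:54431348-54431597 for Mmp14, chr3:54360857-54361106 for Postn and chrX:20869916-20870165 for Timp1. Capitals mark matches on either strand to 5 motifs. These were a TATA box, searched as TATAAA, then a GC box, searched as GGGCGG, then the box written CCAAT. The remaining motifs were an AP-1 site, searched as TGANTCA, and an M-CAT element bound by TEAD factors, searched as GGAATG.
Pdgfra: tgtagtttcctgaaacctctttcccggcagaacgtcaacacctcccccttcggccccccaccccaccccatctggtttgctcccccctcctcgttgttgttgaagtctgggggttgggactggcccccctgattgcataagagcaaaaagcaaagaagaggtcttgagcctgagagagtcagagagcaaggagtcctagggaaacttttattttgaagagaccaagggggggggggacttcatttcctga
Mmp14: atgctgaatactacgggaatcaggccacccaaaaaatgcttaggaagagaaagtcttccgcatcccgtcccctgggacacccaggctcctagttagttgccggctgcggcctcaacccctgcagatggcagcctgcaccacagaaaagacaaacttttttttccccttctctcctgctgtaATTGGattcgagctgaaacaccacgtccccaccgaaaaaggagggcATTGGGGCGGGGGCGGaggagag
Postn: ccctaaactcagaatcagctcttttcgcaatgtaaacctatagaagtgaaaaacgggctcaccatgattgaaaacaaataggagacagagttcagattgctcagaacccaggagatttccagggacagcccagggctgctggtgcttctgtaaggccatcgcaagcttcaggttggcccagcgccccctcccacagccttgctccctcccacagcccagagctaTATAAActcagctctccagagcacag
Timp1: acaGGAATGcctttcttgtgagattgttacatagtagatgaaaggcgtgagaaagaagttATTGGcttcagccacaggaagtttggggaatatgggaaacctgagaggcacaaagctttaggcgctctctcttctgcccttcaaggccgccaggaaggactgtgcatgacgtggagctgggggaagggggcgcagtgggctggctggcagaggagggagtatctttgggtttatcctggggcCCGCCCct
RefSeq gives Postn a further start upstream, not shown. The Pdgfra window held none of the 5 motifs. That of Mmp14 held GC boxes and CCAAT boxes, where neighbouring matches to CCAAT and GC boxes overlap, while the Postn window held a TATA box 26 bases before the start and no other match. In Timp1 the window held a GC box, a CCAAT box and the M-CAT letters. Among 32851 promoter windows of the same length, a TATA box occurred in 12.4%, a GC box in 32.7%, a CCAAT box in 33.8%, the M-CAT letters in 12.6% and the AP-1 letters in 6.75%. The AP-1 letters were in none of the 7 windows of members. A match describes letters only.

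Both deleted genes followed the titles. Cryab lay between 412 and 837 FPKM in the 6 WT libraries and between 0.845 and 1.75 FPKM in the 6 KO libraries, and Hspb2 between 81.5 and 103 FPKM against 0.353 and 1.92 FPKM. Libraries differed by at most 1.36 times in relative depth, read from the steps between low values, and depth in reads is unknown. Muscle fibre markers were high in every library, although Myh4 was listed at 0 in all 12 and Acta1 in WT chow mouse 1 and KO HFD mouse 2, which can be failed estimates. Summed markers of blood lineages did not follow the groups evenly. Lymphocyte markers (7 of 7 listed) summed to 62.0 FPKM in WT chow mouse 2 and to 68.8 and 68.6 FPKM in KO chow mice 1 and 3, and to at most 5.91 FPKM elsewhere. Neutrophil and marrow markers (8 of 9 listed) summed to 1169, 127 and 448 FPKM in the WT HFD mice and to at most 128 FPKM elsewhere. Tendon markers (6 of 6) summed to 245 to 423 FPKM in WT HFD mice and to 38.4 to 181 FPKM in the other libraries. In bulk muscle, fewer cells of a type and less RNA per cell cannot be told apart.

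Per length, the most abundant member was Timp2, an inhibitor that also helps MMP14 to activate MMP2, with a mean of 86.5 ± 22.4 FPKM (SD, n = 12). It was followed by Timp3 with 52.7 ± 7.65 FPKM, an inhibitor that binds to the matrix, and by the gelatinase Mmp2 with 49.4 ± 12.6 FPKM. Fn1 averaged 30.9 ± 11.2 FPKM and Postn 15.1 ± 8.94 FPKM. At the lower end stood Mmp14 with 9.92 ± 2.80 FPKM, Lox with 6.46 ± 2.18 FPKM and Pdgfra with 6.32 ± 1.53 FPKM. Timp1 and Mmp9, at 2.16 ± 1.39 and 2.11 ± 1.34 FPKM, were the lowest. Some neighbours in this order could not be separated. Lox was above Pdgfra in 6 of 12 libraries and Timp1 above Mmp9 in 7 of 12, and Postn exceeded Mmp14 in 8 of 12. By contrast, Timp2 exceeded Timp3, Mmp2 exceeded Fn1, Mmp14 exceeded Lox and Pdgfra exceeded Timp1 in 12 of 12 libraries. Timp3 exceeded Mmp2 in 10 of 12, and Fn1 exceeded Postn in 11 of 12.

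**Figure D1:**
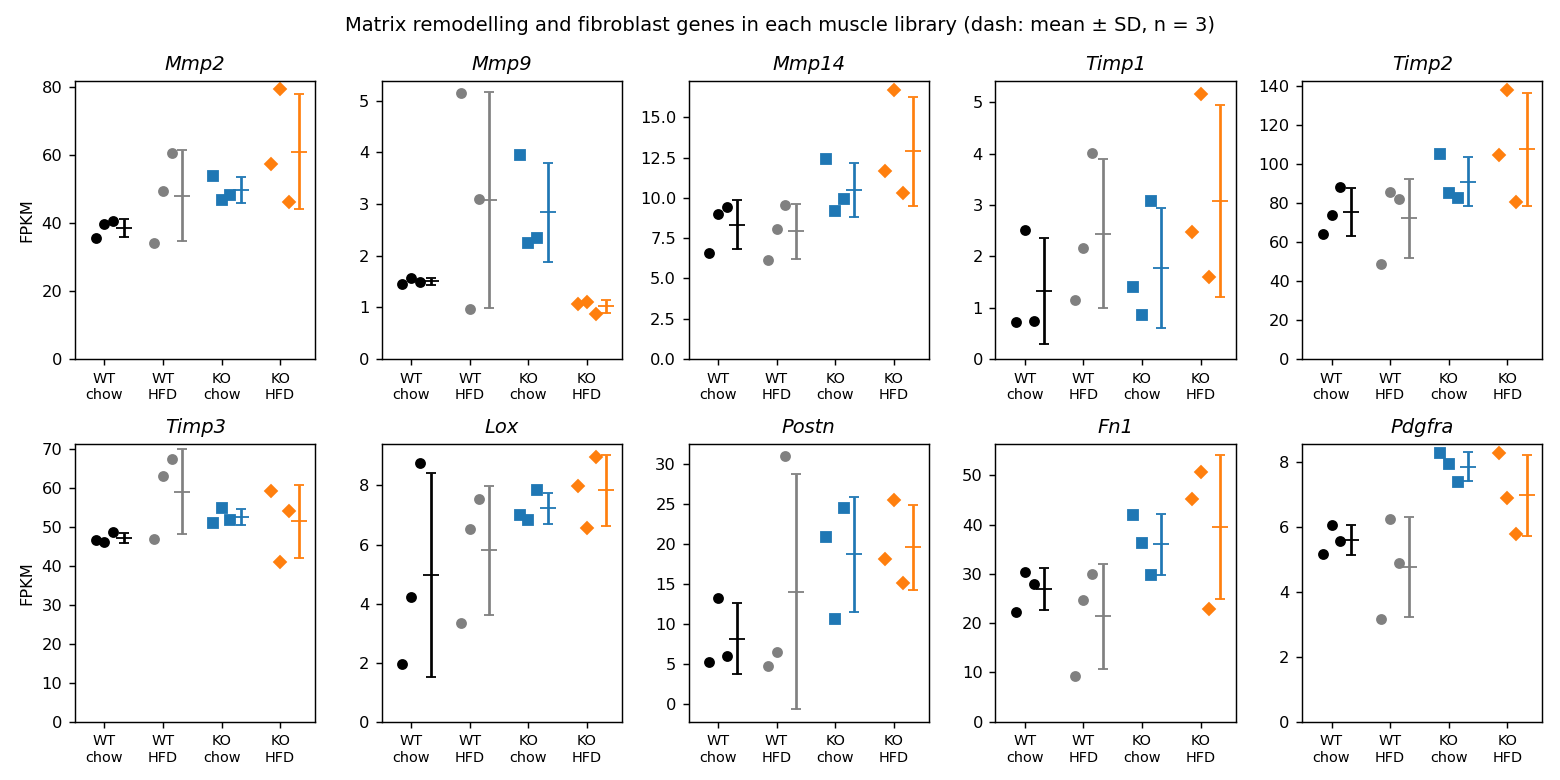
FPKM of the 10 genes in each of the 12 libraries, 1 panel per gene with its own linear axis in FPKM. Points are single mice (chow or HFD), and the dash with bars is the mean ± SD of 3 mice. Pdgfra shows the 3 KO chow mice, at 7.39 to 8.28 FPKM, above the WT chow mice at 5.17 to 6.08 FPKM, and Mmp9 shows the spread from 0.970 to 5.15 FPKM among WT HFD mice.

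The first question was how the genotypes differed. Averaged over diets, 8 of the 10 genes had a higher fitted level in KO than in WT mice, beside 44.4% of all 11945 genes tested. The median difference was 0.44 against -0.02 over all genes. Within groups, all 10 members varied more than the median tested gene, with an SD of 0.20 (Timp3) to 0.83 (Postn) against 0.15 on the log2(FPKM + 1) scale. No member reached an adjusted p of 0.05 in limma's test with Benjamini-Hochberg adjustment over all genes, where 0.862% of all genes did. At an unadjusted p below 0.05, 6 of 10 members were called, all of them higher in KO mice. The background at that level was 26.5% of all genes in either direction and 13.1% in the direction of higher in KO. The 6 were Mmp2, Mmp14, Timp2, Postn, Fn1 and Pdgfra. The count rested on single libraries, and was 2 without WT chow mouse 1, WT HFD mouse 1, KO chow mouse 1 or KO HFD mouse 2, 4 without KO chow mouse 3 or KO HFD mouse 1, and 5 to 7 without any other mouse. It was 1 without the 3 libraries rich in lymphocyte markers and 3 without the 2 richest in marrow markers. In none of the 10 genes did all 6 KO libraries lie on one side of all 6 WT libraries, a pattern seen in 2.71% of all genes.

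Pdgfra encodes the receptor for PDGF that marks fibroblasts and fibro-adipogenic progenitors, and its annotated span is chr5:75152292-75198215 on GRCm38 (GENCODE M21). It read 5.17, 6.08 and 5.58 FPKM in WT chow mice, and 3.18, 6.27 and 4.90 FPKM in WT HFD mice. The KO mice had 8.28, 7.94 and 7.39 FPKM on chow and 8.28, 6.91 and 5.78 FPKM on HFD. The KO values on chow lay above every WT value, and KO HFD mouse 3 overlapped with the WT mice. Averaged over diets the difference was 0.46 (SE 0.12, 95% interval 0.18 to 0.73, unadjusted p = 0.0036, adjusted p = 0.072). On chow it was 0.43 (adjusted p = 0.284) and on HFD 0.49 (adjusted p = 0.197). WT HFD mouse 1 was the lowest library, and without it the difference on HFD was 0.28 (adjusted p = 0.559). Without the marrow-rich WT HFD mice 1 and 3 it was 0.12, with WT HFD mouse 2 the only WT mouse left on that diet.

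Mmp14, at chr14:54431612-54445364, is the membrane-bound collagenase of the set. In WT mice it measured 6.60, 8.98 and 9.44 FPKM on chow and 6.14, 8.10 and 9.56 FPKM on HFD. In KO mice the values were 12.4, 9.20 and 9.94 FPKM on chow and 11.7, 16.7 and 10.3 FPKM on HFD. All 3 KO HFD mice were above the 3 WT mice on that diet, with KO HFD mouse 2 highest of all 12, whereas the groups overlapped on chow. The difference averaged over diets was 0.47 (SE 0.14, unadjusted p = 0.0066, adjusted p = 0.084), and on HFD 0.63 (SE 0.20, adjusted p = 0.154).

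Mmp2 and Timp2 belong to the same activation complex as Mmp14. Mmp2 (chr8:92827291-92853420) read 35.6, 39.6 and 40.7 FPKM in WT chow mice and 54.0, 46.8 and 48.3 FPKM in KO chow mice, without overlap. With HFD it read 34.0, 49.4 and 60.7 FPKM in WT mice and 57.4, 79.5 and 46.2 FPKM in KO mice, which overlapped. Its difference averaged over diets was 0.35 (SE 0.15, adjusted p = 0.171). Timp2 (chr11:118301069-118355740) read 64.2, 73.8 and 88.4 FPKM in WT chow mice and 105.3, 85.1 and 82.5 FPKM in KO chow mice. On HFD it was 48.8, 85.6 and 81.9 FPKM in WT mice and 104.5, 138 and 80.3 FPKM in KO mice. The groups overlapped on both diets for Timp2, with KO HFD mouse 2 again highest and WT HFD mouse 1 lowest. Its difference was 0.42 averaged over diets (SE 0.17, adjusted p = 0.144) and 0.58 on HFD (adjusted p = 0.260), and on HFD it was 0.32 without WT HFD mouse 1 and 0.38 without KO HFD mouse 2.

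Fn1 (chr1:71585520-71653200) encodes fibronectin, an adhesive protein that cells bind through integrins. The WT mice had 22.2, 30.4 and 28.0 FPKM on chow and 9.37, 24.6 and 30.0 FPKM on HFD. In the KO mice it stood at 42.0, 36.2 and 29.7 FPKM on chow and 45.1, 50.6 and 23.0 FPKM on HFD. WT HFD mouse 1 was far below the rest, and groups overlapped on both diets. The fitted difference was 0.67 averaged over diets (SE 0.27, adjusted p = 0.150) and 0.93 on HFD (SE 0.38, adjusted p = 0.262). Without WT HFD mouse 1 they were 0.43 and 0.45.

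Postn encodes periostin, a matricellular protein of collagen-building tissue, and lies at chr3:54361109-54391037. Its values were 5.17, 13.2 and 5.96 FPKM in WT chow mice and 20.9, 10.6 and 24.5 FPKM in KO chow mice. With HFD, they were 4.66, 6.40 and 30.9 FPKM in WT mice and 18.1, 25.5 and 15.1 FPKM in KO mice. WT HFD mouse 3 was the highest of all 12 libraries and lay above all KO mice. The difference averaged over diets was the largest among the members at 1.00 (SE 0.41, unadjusted p = 0.032, adjusted p = 0.151), and on chow it was 1.13 (adjusted p = 0.329). On chow, the mice rich in lymphocyte markers, WT mouse 2 and KO mice 1 and 3, had the most Postn of their groups. Without them the difference on chow was 0.82, with KO chow mouse 2 the only KO mouse left on that diet. Without WT HFD mouse 3 the averaged difference became 1.39 with an adjusted p of 0.039, the only member and library for which the averaged genotype comparison passed on leaving out 1 mouse. That same library had the highest osteoblast marker sum, 54.0 FPKM over 7 of 7 markers against 7.49 to 15.1 FPKM elsewhere, and Bglap was listed at 0 in all 3 mice of each other group. The parts of bone and lymphoid tissue in these results were not tested.

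Lox, which oxidises lysines in collagen and elastin, read 1.96, 4.22 and 8.75 FPKM in WT chow mice and 7.01, 6.82 and 7.83 FPKM in KO chow mice. It read 3.34, 6.53 and 7.54 FPKM in WT HFD mice and 7.997, 6.56 and 8.95 FPKM in KO HFD mice. The WT chow mice spread more widely than the KO chow mice, and the groups overlapped on both diets. The averaged difference was 0.53 (SE 0.26, adjusted p = 0.216), and 0.31 without WT chow mouse 1.

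Timp1 (chrX:20870166-20874735), an inhibitor that cells induce on injury and inflammation, was low and variable. It read 0.728, 2.51 and 0.738 FPKM in WT chow mice and 1.39, 0.854 and 3.08 FPKM in KO chow mice. On HFD the WT values were 1.15, 2.17 and 4.003 FPKM and the KO values 2.47, 5.17 and 1.60 FPKM. The groups overlapped on both diets, and the averaged genotype difference of 0.25 was below its SE of 0.30 and ran from 0.076 without KO HFD mouse 2 to 0.42 without WT chow mouse 2. The annotated span of Timp1 lies inside that of Syn1 on the opposite strand, which was at most 0.267 FPKM, and Fn1 overlaps Apol7d on the opposite strand by 364 bases. Without the strand setting, reads of such pairs cannot be told apart.

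Timp3 (chr10:86300372-86349506) encodes the inhibitor that binds to the matrix, and its fitted genotype difference was 0.16 on chow and below 0 on HFD. It was 46.8, 46.1 and 48.7 FPKM in WT chow mice and 51.2, 55.0 and 51.9 FPKM in KO chow mice, without overlap. With HFD it was 46.9, 63.1 and 67.5 FPKM in WT mice and 59.2, 41.1 and 54.2 FPKM in KO mice, which overlapped. The averaged difference was -0.02 (SE 0.11, 95% interval -0.25 to 0.21) and 0.04 under quantile normalization. The gene lies within the span of Syn3 on the opposite strand, listed at 0.102 to 0.190 FPKM.

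On chow alone, all 10 members had a higher fitted level in KO mice, with a median of 0.38 against -0.03 over all genes. No member passed the adjusted threshold, passed by 0.0586% of all genes, and 1 of 10 passed at an unadjusted p below 0.05, namely Pdgfra. The background was 16.7% in either direction and 6.73% higher in KO. This count was 0 without WT chow mouse 1 or KO chow mouse 1, 2 without WT chow mouse 2 or any one of the WT HFD mice, 3 without the marrow-rich libraries, 0 without the lymphocyte-rich ones and 5 with only the groups compared. The groups did not overlap for 4 members (Mmp2, Mmp9, Timp3 and Pdgfra), against 18.4% of all genes. On HFD, 8 of 10 were higher in KO mice, beside 47.1% of all genes, with a median of 0.46. None passed the adjusted threshold (0.109% of all genes), and 5 passed unadjusted. Of these 5, Mmp14, Timp2, Fn1 and Pdgfra were higher and Mmp9 lower, beside a background of 16.2% in either direction and 9.79% higher in KO. The 5 became 2 without WT HFD mouse 1 or KO HFD mouse 1, 3 without KO HFD mouse 2, 2 when only the groups compared were fitted, 3 without the lymphocyte-rich libraries and 1 without the marrow-rich ones. Only Mmp14 did not overlap, against 23.7% of all genes. The 2 contrasts on single diets share no library, while the averaged contrast uses the libraries of both.

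**Figure D2:**
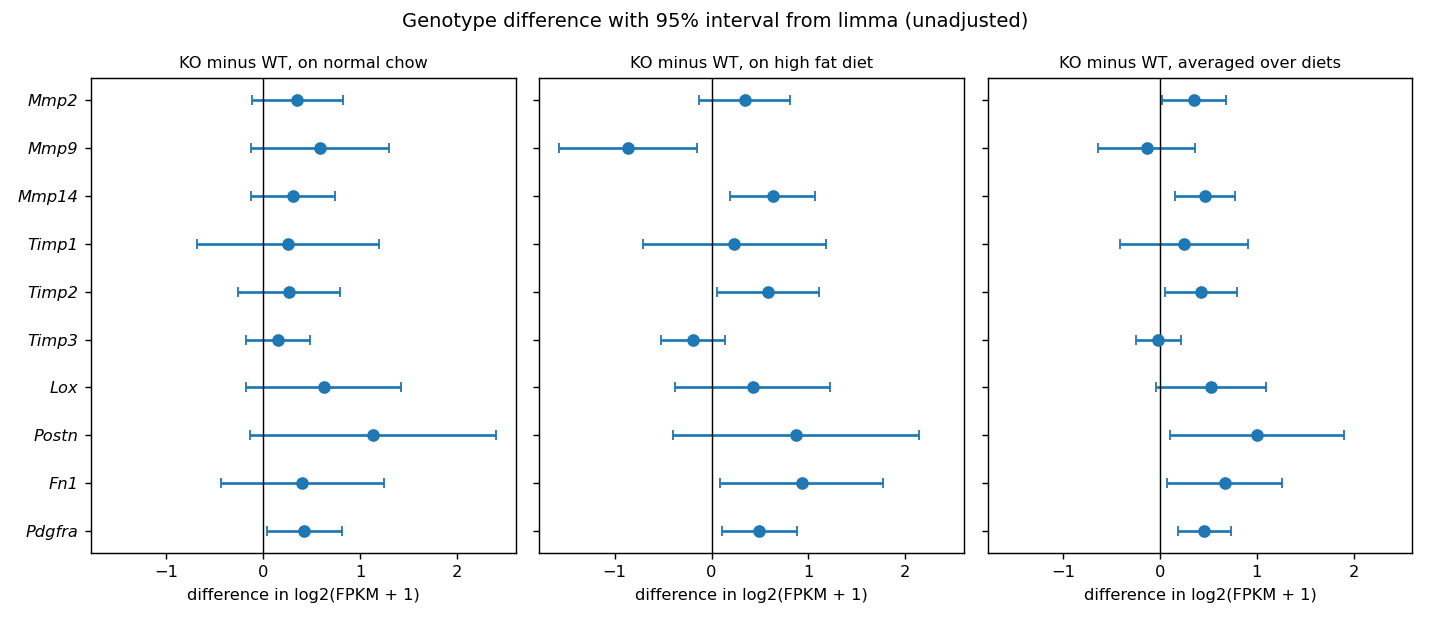
KO minus WT difference in log2(FPKM + 1) for the 10 genes on chow, on HFD and averaged over diets. Points are limma estimates, bars their unadjusted 95% intervals and the vertical line marks no difference. On chow all 10 points lie right of the line, and on HFD Mmp9 at -0.87 and Timp3 lie left of it.

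Mmp9, the gelatinase that neutrophils store and macrophages secrete, was the member that went its own way. It read 1.45, 1.57 and 1.48 FPKM in WT chow mice and 5.15, 0.970 and 3.09 FPKM in WT HFD mice. In KO mice it read 3.95, 2.24 and 2.33 FPKM on chow and 1.07, 1.11 and 0.873 FPKM on HFD. The KO HFD mice were all below the KO chow mice, the KO chow mice were all above the WT chow mice, and WT HFD mouse 2 sat among the KO mice on that diet. Mmp9 lies at chr2:164940780-164955850.

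The genotype difference of Mmp9 was 0.59 on chow (SE 0.32, unadjusted p = 0.095, adjusted p = 0.352; 0.39 without KO chow mouse 1) and -0.87 on HFD (SE 0.32, unadjusted p = 0.021, adjusted p = 0.215). In KO mice the diet difference was -0.90 (SE 0.32, unadjusted p = 0.018, adjusted p = 0.431). The interaction of diet and genotype was -1.46 (SE 0.46, 95% interval -2.46 to -0.45, unadjusted p = 0.0087, adjusted p = 0.636), so that the opposite signs on the 2 diets did not pass the test over all genes. Without WT HFD mouse 2, the genotype difference on HFD was -1.32 with an adjusted p of 0.041, and without WT HFD mouse 1 it was -0.49. Without WT HFD mice 1 and 3, which carry the largest marrow marker sums, it was 0.033 and the interaction -0.56. These mice also had the most Mmp9 of their group, at 5.15 and 3.09 FPKM against 0.970 FPKM. Leaving them out had to shrink the difference, so the fit cannot show the part of marrow. That fit has 1 mouse left in the WT HFD group, which is assumed to vary like the mice of the other groups.

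Neutrophil and marrow markers moved beside Mmp9 in part. The sums were 1169 FPKM in WT HFD mouse 1 and 448 FPKM in WT HFD mouse 3, the mice with 5.15 and 3.09 FPKM of Mmp9, and 127 FPKM in WT HFD mouse 2 with 0.970 FPKM of Mmp9. KO chow mouse 1 had a sum of 128 FPKM and 3.95 FPKM of Mmp9. KO chow mice 2 and 3 had sums of 15.5 and 41.9 FPKM and 2.24 and 2.33 FPKM of Mmp9. Their sums lay within the 11.03 to 42.4 FPKM of the KO HFD mice, whose Mmp9 was 0.873 to 1.11 FPKM. The WT chow mice had sums of 2.65 to 27.6 FPKM and 1.45 to 1.57 FPKM of Mmp9. Macrophage markers (7 of 8) summed to 131 to 251 FPKM in WT chow mice and 122 to 172 FPKM in WT HFD mice, and to 209 to 352 and 195 to 413 FPKM in KO mice. Their part in these results was not tested.

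**Figure D3:**
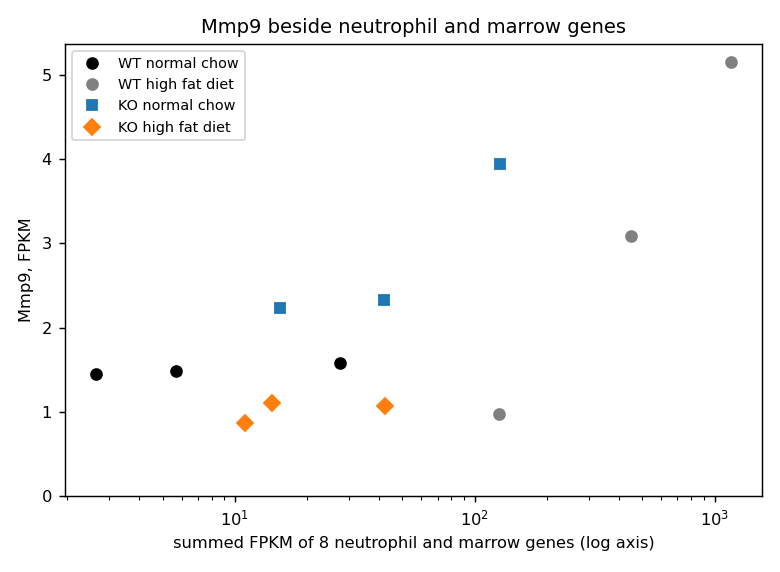
Mmp9 in FPKM, on a linear axis, against the summed FPKM of 8 neutrophil and marrow genes on a log axis, 1 point per library. The WT HFD mice span sums of 127 to 1169 FPKM and Mmp9 values of 0.970 to 5.15 FPKM, and the 3 KO HFD mice lie between 0.873 and 1.11 FPKM of Mmp9.

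No diet difference of a member passed a test in WT mice. Of 10 members, 6 had higher and 4 lower fitted levels on HFD, beside 46.4% of all genes that were higher (median 0.28 against -0.01 over all genes). None passed the adjusted threshold (0.1% of all genes) or an unadjusted p below 0.05 (8.12%), and in none did the groups not overlap (13.1%). The range ran from -0.45 for Fn1 (adjusted p = 0.842) to 0.56 for Timp1 (adjusted p = 0.812), and Timp3, at 0.30 with an unadjusted p of 0.067, came nearest. Leaving out 1 mouse moved Timp1 between 0.25 (without WT HFD mouse 3) and 0.90 (without WT chow mouse 2), and Timp3 between 0.20 (without WT HFD mouse 3) and 0.46 (without WT HFD mouse 1). The sign of Fn1 rested on WT HFD mouse 1, without which it was 0.028.

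In KO mice, 7 members were higher on HFD and 3 lower, beside 56.0% of all genes that were higher (median 0.10 against 0.03). Here 0% of all genes passed the adjusted threshold, while 1 of 10 members passed unadjusted (background 11.3%), namely Mmp9, which also was the only one without overlap (background 16.9%). The count was 0 without KO chow mouse 1. The highest difference was that of Timp1 at 0.54 (adjusted p = 0.594), which ran from 0.19 without KO HFD mouse 2 to 0.86 without KO chow mouse 3. Averaged over genotypes, the set ran from -0.19 for Pdgfra (adjusted p = 0.460, and -0.086 without WT HFD mouse 1) to 0.55 for Timp1 (adjusted p = 0.411), with 0 of 10 members adjusted or unadjusted, against 0.0586% and 13.9% of all genes. For the interaction, 0 of 10 passed the adjusted threshold (0% of all genes) and 1 of 10 unadjusted (6.25%), again Mmp9. The others ranged up to 0.52 for Fn1 (SE 0.54), which was 0.044 without WT HFD mouse 1, 0.87 without KO HFD mouse 3 and 0.18 without the marrow-rich libraries. With 3 mice per group the intervals were wide, as that of Fn1 for the diet in WT mice, from -1.30 to 0.39, shows.

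**Figure D4:**
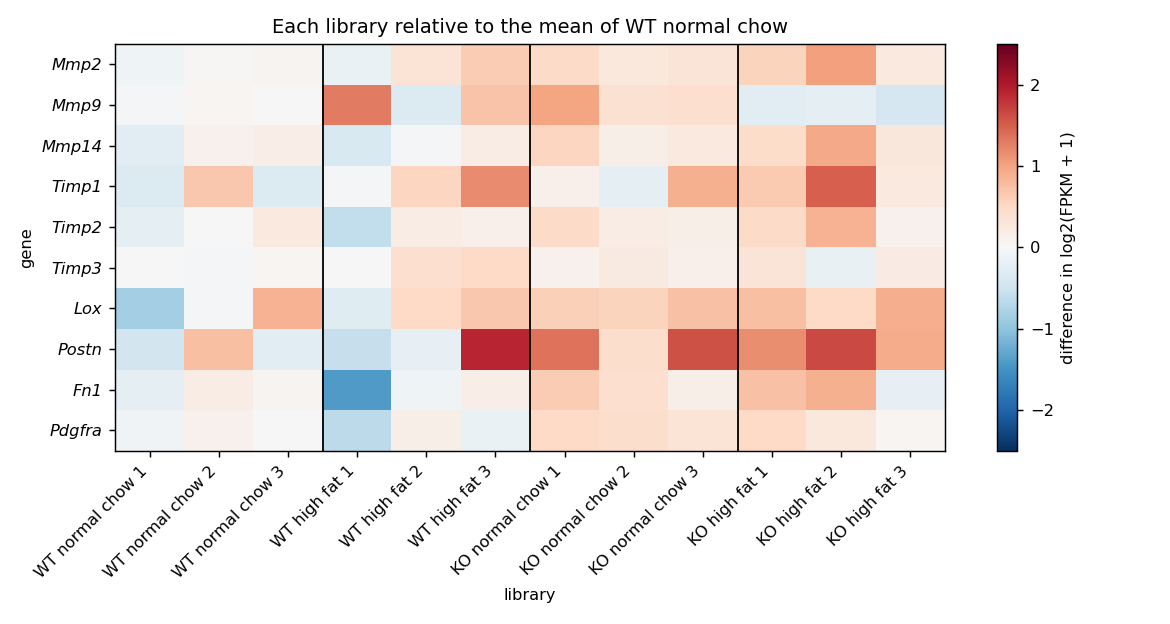
Heat map of the 10 genes (rows) in the 12 libraries (columns), coloured by the difference in log2(FPKM + 1) from the mean of the WT chow mice, red higher and blue lower. Postn is red in the KO columns, in WT HFD mouse 3 and in WT chow mouse 2, which at 13.2 FPKM is redder than KO chow mouse 2 at 10.6 FPKM, and Fn1 is darkest blue in WT HFD mouse 1, where it read 9.37 FPKM.

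Across the 12 libraries several members moved with each other, within the MMP2 activation complex and beyond it. Of 45 pairs of members, 36 had a positive Pearson r on the log2(FPKM + 1) scale, and 13 passed an adjusted permutation p of 0.05 over the 45 pairs. No such share was computed for other genes, so these counts do not set the members apart. The closest pair was Mmp14 and Timp2 (r = 0.94, permutation p = 4e-05, adjusted p = 0.0016, Spearman rho = 0.75, permutation p = 0.0067, adjusted p = 0.040), where r was 0.86 without the 2 libraries farthest from the median of Mmp14. Mmp2 and Mmp14 had r = 0.88 (permutation p = 0.00033, adjusted p = 0.0037, rho = 0.76, adjusted p = 0.040, r without the 2 farthest libraries = 0.68). Fn1 and Pdgfra had r = 0.88 (permutation p = 0.00073, adjusted p = 0.0059, rho = 0.74, adjusted p = 0.040, r without 2 libraries = 0.79). The permutations ignored the groups, so a group difference shared by 2 genes also counts as moving together. As deviations from the group means, the same pairs gave r of 0.91, 0.92 and 0.84, for which no p was computed. Second closest of the 45 was Timp2 with Fn1, a gene outside the MMP2 activation complex, at r = 0.92. Its permutation p was 7e-05 (adjusted p = 0.0016, rho = 0.76, adjusted p = 0.040). Mmp14 and Fn1 had r = 0.84 (permutation p = 0.00079, adjusted p = 0.0059). These pairs share their libraries and all the differences between them. The ratio of Timp2 to Mmp14 stayed within 7.79 and 10.6 in all 12 libraries, a factor of 1.36, although Timp2 itself ran from 48.8 to 138 FPKM. Mmp9 stood apart, with a median r of -0.23 with the other members, and Timp3 with 0.11, against 0.76 for Mmp2 and 0.67 for Mmp14.

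**Figure D5:**
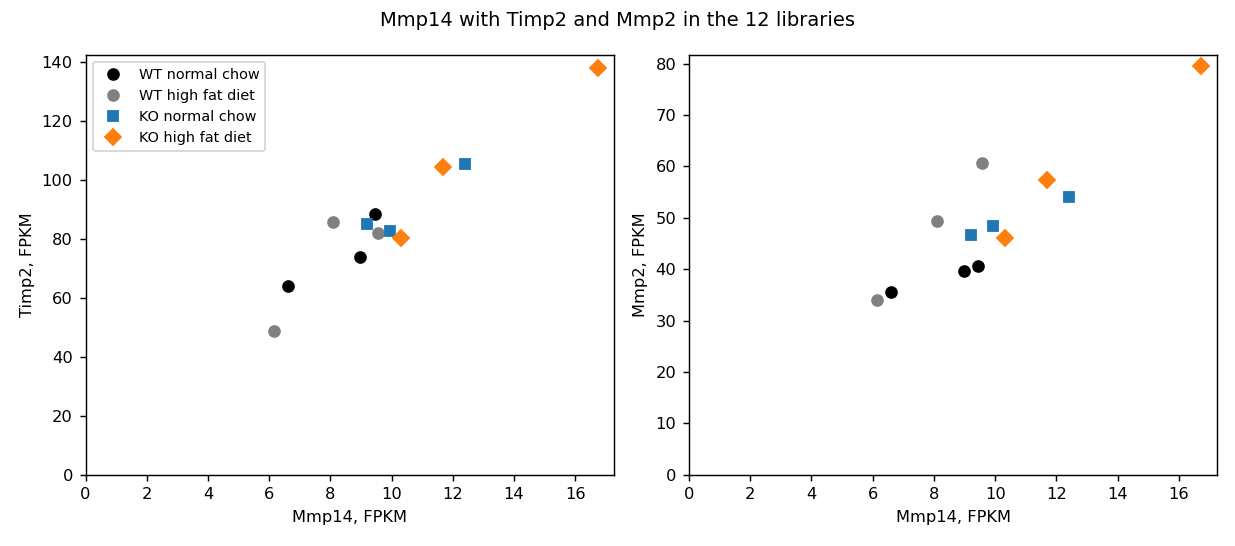
Timp2 (left) and Mmp2 (right) against Mmp14, all in FPKM on linear axes from 0, 1 point per library and symbols by group. KO HFD mouse 2 is the upper right point in both panels, with 16.7 FPKM of Mmp14, 138 FPKM of Timp2 and 79.5 FPKM of Mmp2.

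For each member the tested genes with the most similar pattern over the 12 libraries were listed, as a description. Pdgfra was closest to Mrc1 (r = 0.95), Rbpj and Slit3, Mmp14 to Akr1b8 (r = 0.98), Vat1 and Cpxm1, and Mmp2 to Fkbp10 (r = 0.95), Ctsk and Ckb. Timp2 was closest to Gpx8 (r = 0.95), Ccl8 and Serping1, and Fn1 to Pgcp (r = 0.97), Fstl1 and Fndc1. Postn was closest to Fat1 (r = 0.92), Dap and Nt5c2, and Timp1 to the small proteoglycan gene Bgn (r = 0.96), Tmem119 and Olfml3. Timp3 stood nearest to Fam26e (r = 0.86), Etv1 and Zfp202, Lox to Stat3 (r = 0.89), Elmod2 and Plagl1, and Mmp9 to Ephb6 (r = 0.89), Lzts2 and Tesk2. Of these 30 neighbours Mrc1 and Ctsk stand in the macrophage and osteoclast lists.

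Genes around the members were then counted. The 8 lists of other matrix proteases, inhibitors, cross-linking enzymes, matricellular and adhesive proteins, fibronectin receptors, fibroblast markers, PDGF ligands and TGF-β pathway genes held 110 genes, of which 99 were tested. Averaged over diets, 1 of 99 passed the adjusted threshold, a share near the 0.862% of all genes, and it was higher in KO mice. This was Loxl1, a relative of Lox that acts on elastin. It was 10.04, 11.7 and 10.6 FPKM in WT chow mice and 16.7, 14.9 and 14.8 FPKM in KO chow mice, and 4.97, 8.48 and 10.2 FPKM against 15.5, 21.8 and 13.4 FPKM on HFD. All 6 KO mice were above all 6 WT mice, and 2.71% of all genes had no overlap in either direction. The difference was 0.76 (SE 0.15, adjusted p = 0.0498), so close to the threshold that leaving out 1 mouse kept the call in 4 of 12 fits, with adjusted p from 0.035 to 0.131. The call was lost without WT mouse 1 or 3 on chow, WT mouse 1 or 2 on HFD, KO mouse 1 or 3 on chow, and KO mouse 1 or 2 on HFD.

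At an unadjusted p below 0.05, 33 of the 99 were higher and 12 lower in KO mice averaged over diets, beside 13.1% of all genes that were higher and 13.4% that were lower at that level. Among fibroblast markers 7 of 15 were higher and 0 lower, with a median of 0.33 and 13 of 15 above 0, beside 44.4% of all genes above 0. Among other matrix proteases, 10 of 18 were higher and 0 lower, and the median was 0.32. The matricellular and adhesive list had 6 of 24 higher and 1 lower, and the TGF-β list 3 of 15 higher and 5 lower. On HFD the counts were 35 higher and 11 lower of 99, beside 9.79% and 6.45% of all genes. The genes with the smallest p were the urokinase gene Plau at 0.67 (adjusted p = 0.069), Loxl1 at 1.03 (adjusted p = 0.069) and the stromelysin gene Mmp3 at 2.01 (adjusted p = 0.083). Plau read 36.8 ± 5.62 FPKM in KO mice and 22.7 ± 3.26 FPKM in WT ones (SD, n = 3 in both). For chow-fed mice they were the fibroblast marker S100a4 at 1.44 (adjusted p = 0.272), the TGF-β mediator Smad3 at -0.54 (adjusted p = 0.277) and the ligand Pdgfa at -0.34 (adjusted p = 0.277), with 9 of 99 higher and 6 lower beside 6.73% and 9.93% of all genes, and the 15.2% in either direction was near the 16.7% of all genes.

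In the diet comparison of WT mice 15 of 99 were higher and 5 lower on HFD at an unadjusted p below 0.05, beside 4.42% and 3.70% of all genes, led by the matricellular genes Thbs1 at 1.34 (adjusted p = 0.135) and Cyr61 at 1.10 (adjusted p = 0.146) and by Tagln at 0.51 (adjusted p = 0.156). In KO mice 9 were higher and 2 lower, beside 6.56% and 4.73% of all genes, and the 11.1% in either direction was near the 11.3% of all genes. The macrophage elastase gene Mmp12 went from 0.140 ± 0.139 to 7.54 ± 2.05 FPKM there, a difference of 2.89 (SE 0.41, adjusted p = 0.087), followed by the integrin subunit gene Itgb5 at 0.35 and the inhibitor gene Serpine2 at 0.39 with adjusted p of 0.379 and 0.400. Averaged over genotypes, Mmp12 at 1.89 (adjusted p = 0.063), Tgfb2 at 0.42 (adjusted p = 0.159) and Cyr61 at 0.76 (adjusted p = 0.176) came first. For the interaction they were Mmp12 at 1.99 (adjusted p = 0.593), Plau at 0.68 (adjusted p = 0.598) and Tagln at -0.58 (adjusted p = 0.609).

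Summed markers of other cell types differed between libraries. Osteoclast markers (6 of 6) summed to 32.9 to 66.8 and 45.2 to 77.0 FPKM in KO mice on chow and on HFD, against 12.4 to 44.2 and 10.3 to 38.6 FPKM in WT mice. The osteoclast list shares Ctsk with the protease list. On chow its sum was mostly Acp5 and Ctsk. Calcr, Ocstamp, Atp6v0d2 and Dcstamp were at most 0.414 FPKM there and overlapped between genotypes. On HFD Acp5, Ctsk, Atp6v0d2 and Dcstamp were higher in KO mice without overlap, while Calcr and Ocstamp overlapped. The sum of adipocyte markers (5 of 5) was 815 to 1729 FPKM in KO chow mice and 112 to 729 FPKM in WT chow mice, without overlap. Most of it was Cfd, at 577 to 1329 FPKM against 69.1 to 469 FPKM. Plin1 did not overlap on chow either, while Adipoq, Lep and Cidec did. On HFD the adipocyte markers summed to 348 to 506 FPKM in KO mice and to 5.90, 108 and 385 FPKM in WT mice. The lowest, WT HFD mouse 1, was also the library lowest for Pdgfra, Fn1, Timp2, Mmp14, Mmp2 and Postn. These are all the members with an unadjusted p below 0.05 in limma's test of the averaged genotype difference. Loxl1 was lowest in that library too. Endothelial markers (5 of 5) stayed within 76.0 and 102 FPKM in all 12 libraries, while Schwann cell markers (5 of 5) ran from 101 to 471 FPKM. Lymph node stroma markers (5 of 6) were high in the same 3 libraries as the lymphocyte markers, at 56.9 to 93.8 FPKM against at most 4.47 FPKM. Skin and hair markers (6 of 6) reached 24.3 FPKM in WT HFD mouse 2 and at most 1.52 FPKM elsewhere. The part of these cell types in the differences was not tested. Without the 3 lymphocyte-rich libraries, the averaged genotype difference was 0.49 for Pdgfra, 0.41 for Mmp14 and 0.72 for Fn1, with adjusted p of 0.391, 0.439 and 0.480. Without WT HFD mice 1 and 3 it was 0.28, 0.45 and 0.49.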

How the data were processed

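RNA from proximal hind limb muscle was extracted with a column kit, and libraries were made by a TruSeq RNA protocol. The deposited files give 1 FPKM value per gene symbol and mouse, which the authors made without pooling mice. The submitters' processing notes name TopHat2 2.0.8b, Cuffdiff 2.1.1 and the mouse build mm10, without their roles. The strand setting of the counting and the gene annotation are not given in the sources used here. Columns of other samples numbered 0. Cuffdiff can give 0 where its estimate fails, and FPKM shares out reads between overlapping transcripts.

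Where a symbol occurs more than once, its row of highest mean entered the fit. Genes with at least 1 FPKM in at least 3 of 12 samples were tested with limma 3.58.1 in R 4.3.3 on log2(FPKM + 1), with a pseudocount of 1, 4 group means, an intensity trend, 8 residual degrees of freedom, two-sided p and Benjamini-Hochberg adjustment over all 11945 genes at 0.05. The script was tested on simulated data. Which mice were littermates is not given. The p-values treat the mice as independent, and an effect of shared litters was not tested. The 10 members and the gene lists were chosen with earlier results of these data known, so no list is independent evidence. All members were named, and of the lists, in each comparison, the genes past the threshold or otherwise the 3 with the lowest p, with the 3 tested genes of highest Pearson r for each member. Permutation p-values of correlations used 100000 permutations. Positions come from GENCODE M21 (GRCm38), in which all 10 members were found, and sequences from RefSeq. Alternatives were another pseudocount, other filters, other scalings, a replicate block, only the groups compared, genotype by its own label, robust moderation and each mouse left out. Leaving out lymphocyte-rich or marrow-rich libraries was chosen after seeing the data. Same-numbered mice did not deviate together in every pair, so numbers were not taken to pair mice. Figures and other values were made in Python 3.11.15.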

Additional observations from a re-analysis of the deposited data

How the results depend on the processing

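No member passed an adjusted p of 0.05 in limma's test in any of the 7 comparisons under any other setting in which no mouse was left out, nor without the lymphocyte-rich libraries (WT chow mouse 2, KO chow mice 1 and 3) or the marrow-rich ones (WT HFD mice 1 and 3). Each of those fits leaves 1 mouse in a group, assumed to vary like the others. Leaving out 1 mouse gave between 0 and 1 members for the genotype on high fat diet (Mmp9 without WT HFD mouse 2) and between 0 and 1 for the genotype averaged over diets (Postn without WT HFD mouse 3). At an unadjusted p below 0.05, the 7 comparisons had 0, 1, 1, 5, 6, 0 and 1 members, with diet in WT and in KO mice first, then genotype on chow, on HFD and averaged, and then diet averaged and the interaction. Without 1 mouse they ran from 0 to 2, 0 to 1, 0 to 2, 2 to 6, 2 to 7, 0 to 3 and 1 to 2.

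Counts over all genes moved more. Diet in WT mice gave 12 genes, and 7 with the replicate block, 3 with only the groups compared, 0 by the genotype entry, 1 without the lymphocyte-rich libraries, 2 without the marrow-rich ones and 1 to 32 without 1 mouse, the highest without WT HFD mouse 2. Diet in KO mice gave 0, and 6 without a filter, 9 with quantile normalization, 7 with only the groups compared, 6 without the marrow-rich libraries and 0 to 10 without 1 mouse, the highest without WT HFD mouse 1. Genotype on chow gave 7, and 0 with at least 1 FPKM in every sample, 4 with the replicate block, 4 with only the groups compared, 0 by the genotype entry, 4 without the marrow-rich libraries and 4 to 14 without 1 mouse. Genotype on HFD gave 13, and 24 without a filter, 0 with 1 FPKM in every sample, 26 with quantile normalization, 5 with the block, 8 with only the groups compared, 0 by the genotype entry, 6 without the marrow-rich libraries and 4 to 82 without 1 mouse, the highest without WT HFD mouse 3. Genotype averaged gave 103, and 42 without a filter, 200 with quantile normalization, 40 with the block, 0 by the genotype entry, 11 without the lymphocyte-rich libraries, 7 without the marrow-rich ones and 10 to 1208 without 1 mouse, the lowest without WT chow mouse 1 and the highest without KO chow mouse 2. Diet averaged gave 7, and 1 with the block, 0 by the genotype entry, 1 without the lymphocyte-rich libraries, 4 without the marrow-rich ones and 1 to 18 without 1 mouse. The interaction gave 0, and 1 without a filter and 0 to 1 without 1 mouse. Causes were not tested.

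Of 28 differences of members, 16 changed sign when samples were grouped by the genotype entry, which Cryab and Hspb2 contradict. These were Fn1 for diet in WT mice at 0.78, on HFD Mmp9 at 0.57, Mmp14 at -0.68, Timp2 at -0.72, Fn1 at -1.21 and Pdgfra at -0.54, and Fn1 for the interaction at -1.70. Averaged over diets they were Mmp2 at -0.12, Mmp9 at 0.57, Mmp14 at -0.20, Timp1 at -0.44, Timp2 at -0.21, Timp3 at 0.17, Postn at -0.19, Fn1 at -0.36 and Pdgfra at -0.079, and Loxl1 changed sign too, at -0.29. Timp3 averaged over diets was 0.039 with quantile normalization, 0.0022 without the lymphocyte-rich libraries and -0.098 to 0.056 without 1 mouse. Mmp9 without the marrow-rich libraries was 0.033 on HFD and 0.31 averaged over diets, and -0.36 to 0.047 averaged without 1 mouse. Fn1 for diet in WT mice ran from -0.76 to 0.028 without 1 mouse. No sign changed in these 28 with another pseudocount or with size factors. With the replicate block, no filter, robust moderation or only the groups compared, no sign could change, because the fitted differences are the same by design. Only the groups compared covers 14 of the 28. Mmp9 and Timp1 do not reach 1 FPKM in every sample, so they have no value under that filter.

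The replicate number was also fitted as a block. Correlations of same-numbered mice ran from -0.81 to 0.39 over the pairs of groups. They cannot exclude a pairing, since deviations from a mean of 3 mice also carry other differences between libraries. The block changed no call on a member, and Loxl1 had an adjusted p of 0.076 with it. Of 10 alternatives other than leaving out 1 mouse, Loxl1 kept its call in 3. Depth in reads is unknown.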
